A study of Capra hircus with 9 samples.

Results

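The insulin-like growth factor (IGF) genes described here are the 2 ligands IGF1 and IGF2, the 2 receptors IGF1R and IGF2R, and the 6 binding proteins IGFBP2 to IGFBP7. These 10 genes were chosen by symbol, and each had 1 row among the 23499 genes of the deposited table. All 10 passed the filter on low values (at least 0.5 FPKM in at least 3 libraries), as did 14701 genes in all. RNA was sequenced from the mammary gland of 9 goats of the Laoshan dairy breed, all healthy and kept on the same farm under the same feeding. The goats were in parity 3, averaged 4 years of age and gave 1 library each, with 3 in late lactation (LL, 240 days postpartum), 3 in the dry period (DP, 300 days postpartum) and 3 in late gestation (LG, 140 days after mating). The tissue was taken at slaughter and held all cell types of the gland, so fewer cells of a type and less RNA per cell cannot be told apart.

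IGF1 and IGF2 are secreted growth factors that act through IGF1R, a receptor tyrosine kinase which signals to PI3K and AKT. IGF2R takes up IGF2 and carries it to lysosomes without such a signal, and the binding proteins hold the ligands in blood and tissue and limit or prolong their access to the receptor. In the mammary gland this system is known for its part in ductal growth and in the survival of epithelial cells, and in rodents IGFBP5 is known as a secreted product of the involuting gland.

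Values are given as deposited FPKM, which are per length and can be compared between genes within a library. Between stages they are not on 1 scale. The 10 highest genes held 80.6% to 86.0% of the summed FPKM of LL libraries, but 53.6% to 58.1% of DP and 55.0% to 58.5% of LG libraries. Each library was therefore divided by a median-ratio scaling factor, with a range of 0.498 to 0.605 over LL, 1.44 to 1.53 over DP and 1.198 to 1.31 over LG libraries. Without scaling, the median log2 fold change of all genes tested was 1.09 for DP against LL, 0.93 for LG against LL and -0.18 for LG against DP, and with scaling it was 0.00, 0.02 and 0.01. All log2 fold changes below are on the log2(scaled FPKM + 1) scale with their SE. A gene was called where the adjusted p of limma (Benjamini-Hochberg, over all genes tested) was under 0.05 and the log2 fold change was at least 1 in size.

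The libraries carried the marks of their stage. The β-casein gene CSN2 averaged 94297 FPKM in LL but 32.1 in DP, with 4938 in LG, and all 5 milk protein genes of the marker list were called in each comparison, although the deposited values of CSN1S1, CSN1S2 and CSN3 ran nearly together. DP replicate 3 stood apart from the other DP libraries in some IGF genes and cell type markers. Its scaled value was more than 2 times the higher of the other DP values for 3 of the 10 IGF genes, namely IGFBP2 (7.21 times), IGFBP4 (2.78 times) and IGFBP6 (9.15 times), against 3.42% of all genes tested. The same held for 4 of 6 fibroblast markers (COL1A1, COL1A2, COL3A1 and LUM, 3.43 to 3.75 times) and, of 6 myoepithelial markers, for the contractile genes ACTA2 (4.08 times) and MYLK (2.75 times), while KRT5, KRT14 and OXTR were at 0.354, 0.473 and 0.258 times the higher of the other DP values and TP63 at 1.04 times. The summed scaled FPKM of the 6 fibroblast markers was 502, 906 and 2392 in DP replicates 1 to 3, against 212 to 324 in LL and 521 to 954 in LG. DP replicates 1 and 2 differed as well. By the same rule, DP replicate 1 stood more than 2 times above the others for 2.76% of genes tested, and DP replicate 2 for 0.782%. The adipocyte marker ADIPOQ was at 19.32 FPKM in DP replicate 1, against 0.79 and 1.72 in DP replicates 2 and 3. For the IGF genes and other genes of the pathway, calls and orders that rest on DP replicate 3 are given with and without it. Those of the cell type markers include it.

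Of the 10 IGF genes, 3 were called in DP against LL (IGFBP3 and IGFBP4 higher, IGFBP5 lower), against 22.6% of all genes tested (13.8% higher, 8.79% lower). In LG against LL, 1 was called (IGFBP5, lower), against 17.3% of genes (10.7% higher, 6.61% lower). In LG against DP, 3 were called (IGF2, IGFBP3 and IGFBP4, all lower), against 13.3% of genes (6.37% higher, 6.88% lower). The share of the members called was thus above that of all genes in both comparisons with DP and below it in LG against LL, and with 10 genes little can be read from these shares. Without scaling, 7 (all higher), 5 (4 higher, 1 lower) and 4 (all lower) were called, and with quantile normalization 5 (4 higher, 1 lower), 1 (lower) and 4 (all lower). Without DP replicate 3 the counts were 4 (IGF2R added), 2 (IGFBP2 added) and 3 (IGFBP2, IGFBP3 and IGF2R). The share of all genes called was not taken under these other settings, so these counts cannot be set against it. The comparisons share stages and are not independent of each other. The median log2 fold change of the 10 genes was 0.68, -0.15 and -0.64 in the 3 comparisons. On the adjusted p alone, without a fold threshold, 7, 2 and 5 of them passed, against 56.9%, 50.2% and 34.8% of genes. The scaled values of the compared stages did not overlap for 7, 2 and 6 of the 10 genes, against 65.9%, 61.1% and 47.9% of genes, and the deposited values did not overlap for 8, 8 and 6, against 87.9%, 80.0% and 49.8%. IGF1, IGF1R, IGF2R, IGFBP2, IGFBP6 and IGFBP7 were called in no comparison.

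**Figure D1:**
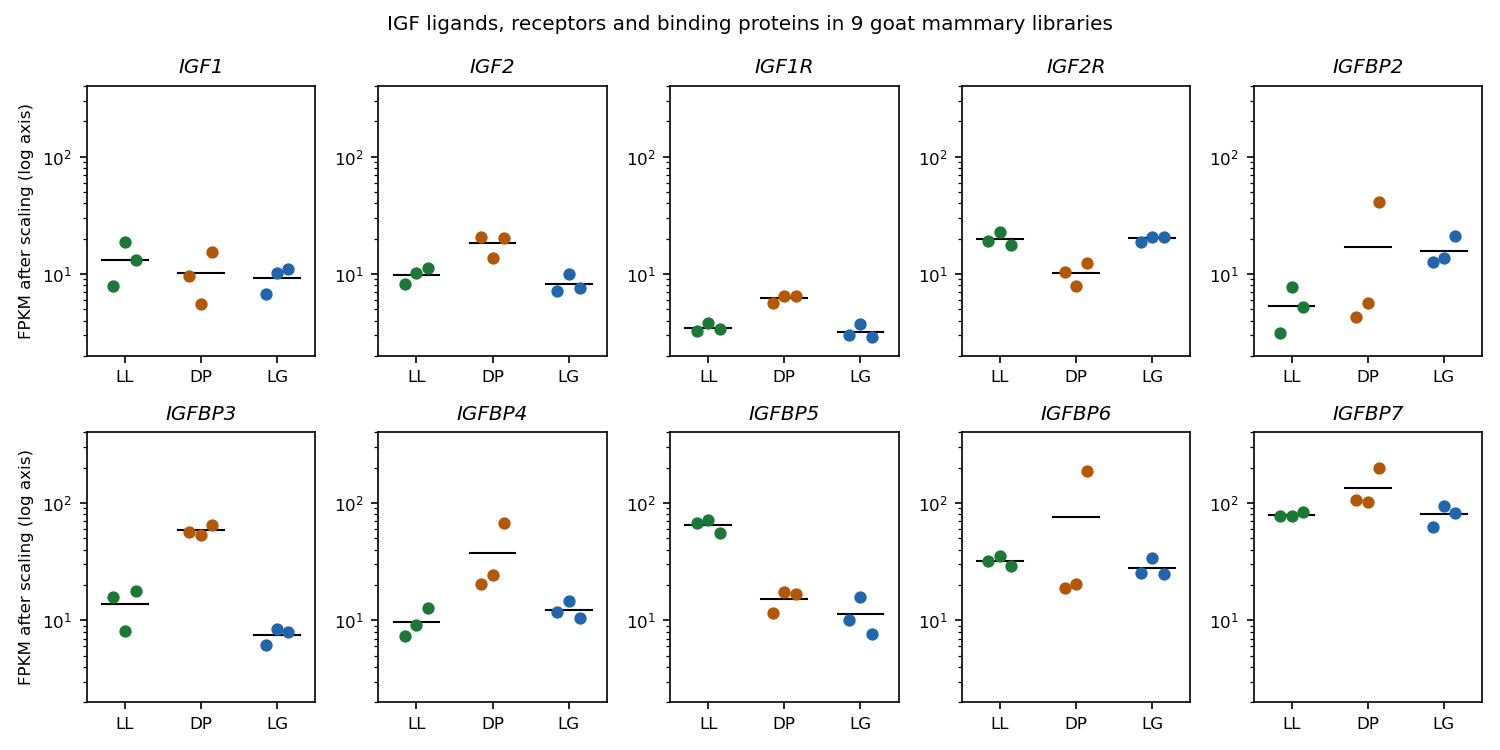
Scaled FPKM (log axis) of the 10 IGF genes in each library of late lactation (LL), dry period (DP) and late gestation (LG), with points for libraries in the order of replicates 1 to 3 and a line for the mean of a stage. IGFBP3 lies at 53.7 to 65.4 in DP, above all LL and LG libraries, IGFBP5 lies at 55.4 to 71.4 in LL, above all DP and LG libraries, and the third DP point of IGFBP2, IGFBP4 and IGFBP6 lies far above the other two.

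The ligand IGF1 (gene ID 100860838, chromosome 5, 64862983 to 64943172, minus strand; the table names no genome build) varied widely within each stage. LL replicates 1 to 3 were at 3.91, 10.36 and 7.95 FPKM, DP replicates at 14.56, 7.93 and 22.34, and LG replicates at 8.02, 12.56 and 14.41. Every pair of stages overlapped. After scaling, the log2 fold change was -0.38 (SE 0.37, 95% interval -1.20 to 0.45) for DP against LL, -0.42 for LG against LL and -0.04 for LG against DP, with adjusted p-values of 0.402, 0.370 and 0.937 in limma. No difference in IGF1 was resolved by 3 libraries per stage, and without scaling the differences against LL were above 0 (0.90 and 0.64).

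IGF2 (gene ID 100861277, chromosome 29, 50430375 to 50438275, plus strand), the ligand best known for fetal growth, was highest in DP. The LL libraries were at 4.06, 5.65 and 6.79 FPKM, the DP libraries at 31.72, 19.89 and 29.07, and the LG libraries at 8.58, 12.33 and 10.03. No DP value overlapped LL or LG, and this also held after scaling (13.8 to 20.8 in DP, 8.16 to 11.2 in LL, 7.17 to 9.996 in LG). IGF2 fell by 1.05 on the log2 scale (SE 0.19) from DP to LG, with an adjusted p of 0.00298 in limma. It was 0.81 higher in DP than in LL (SE 0.19, adjusted p = 0.00612 in limma), under the fold threshold. The call for LG against DP lay at the threshold, with log2 fold changes of -0.94, -0.96 and -0.96 without DP replicate 1, DP replicate 3 or LG replicate 1. For LG against LL the value was -0.23 (adjusted p = 0.349 in limma), and it was 0.81 without scaling.

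Within a library, the share of ligand FPKM does not depend on scaling. IGF1 made up 55.9% ± 8.01 (SD, n = 3) of the summed FPKM of IGF1 and IGF2 in LL, with 34.5% ± 7.92 in DP and 52.6% ± 5.63 in LG. The ratio of IGF1 to IGF2 spanned 0.963 to 1.83 over LL, 0.399 to 0.768 over DP and 0.935 to 1.44 over LG libraries, so that the DP libraries did not overlap with the others. IGF2 thus exceeded IGF1 in all 3 DP libraries, while both orders occurred in LL and LG.

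IGF1R (gene ID 100861165, chromosome 21, 7038506 to 7343433, plus strand), the signalling receptor, had the lowest mean FPKM of the 10 genes in LL and LG, and also in DP unless DP replicate 3 was left out, when IGFBP2 was lower. LL replicates 1 to 3 were at 1.63, 2.12 and 2.04 FPKM, DP replicates at 8.59, 9.32 and 9.31, and LG replicates at 3.59, 4.63 and 3.79. The DP libraries differed little among themselves (CV 4.61%) and lay above all LL and LG libraries, with and without scaling. The log2 fold change was 0.68 (SE 0.12, adjusted p = 0.00126) for DP against LL and -0.77 (SE 0.12, adjusted p = 0.00119) for LG against DP in limma, both under the fold threshold. LG and LL overlapped after scaling, with a difference of -0.10 (adjusted p = 0.527 in limma) that was 0.77 without scaling.

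IGF2R (gene ID 100860744, chromosome 9, 83501097 to 83604791, plus strand), the receptor that clears IGF2, stood the other way after scaling. The LL libraries were at 9.55, 12.62 and 10.59 FPKM, the DP libraries at 15.77, 11.42 and 17.71, and the LG libraries at 22.52, 25.56 and 27.37. After scaling the DP libraries lay lowest, at 7.92 to 12.3 against 17.5 to 22.8 in LL and 18.8 to 20.8 in LG, with no overlap between DP and either stage. The log2 fold change was -0.91 (SE 0.17, adjusted p = 0.00174) for DP against LL and 0.93 (SE 0.17, adjusted p = 0.00272) for LG against DP in limma, just under the fold threshold. Without DP replicate 3 these differences reached -1.04 and 1.07 and were called, as was the first without LL replicate 3 (-1.01), and without scaling the difference of DP against LL was 0.41.

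The ratio of IGF1R to IGF2R within a library, chosen after the values were seen, does not depend on scaling. It was 0.171, 0.168 and 0.193 in the LL libraries, 0.545, 0.816 and 0.526 in the DP libraries and 0.159, 0.181 and 0.138 in the LG libraries. The mean ratio was 0.629 ± 0.162 (SD, n = 3) in DP, against 0.177 ± 0.0135 in LL and 0.1597 ± 0.0213 in LG. Every DP library lay above every other library, while LL and LG overlapped. IGF2R exceeded IGF1R in all 9 libraries.

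**Figure D2:**
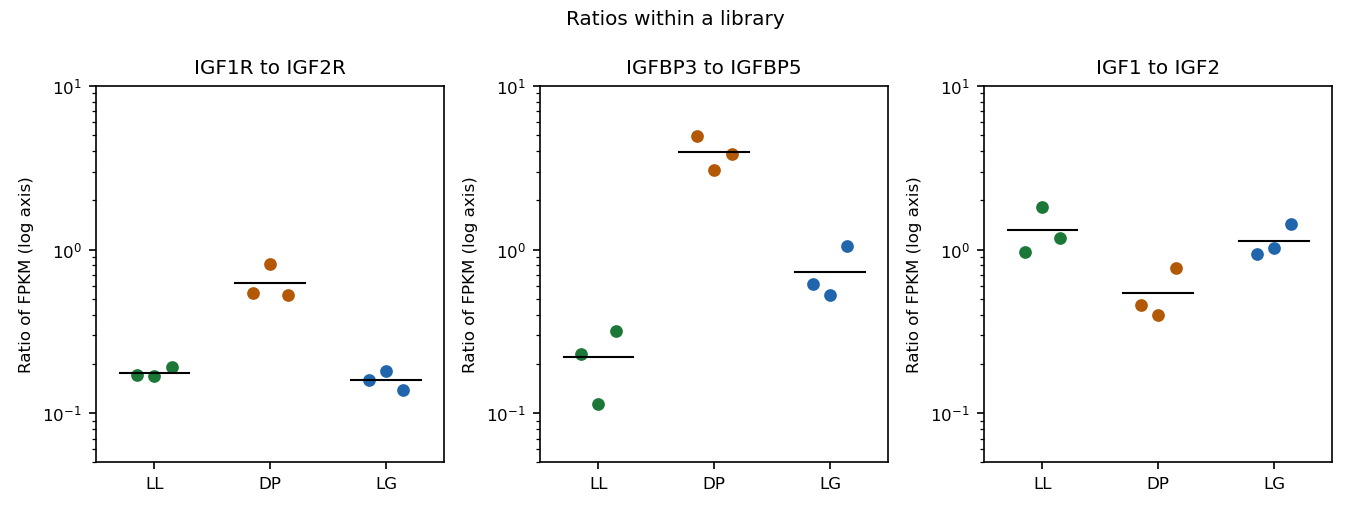
Ratios of deposited FPKM within each library (log axis) for IGF1R to IGF2R, IGFBP3 to IGFBP5 and IGF1 to IGF2, with points for libraries and a line for the mean of 3. The DP libraries lie above all others for the first and second ratio (0.526 to 0.816 and 3.08 to 4.92) and below all others for IGF1 to IGF2 (0.399 to 0.768).

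IGFBP3 (gene ID 102174541, chromosome 4, 44058187 to 44065021, minus strand), which carries most circulating IGF, showed the clearest rise in DP. LL replicates 1 to 3 were at 7.84, 4.49 and 10.72 FPKM, DP replicates at 87.25, 77.41 and 94.17, and LG replicates at 7.46, 10.46 and 10.53. The means were 7.68 ± 3.12 (SD, n = 3), 86.3 ± 8.42 and 9.48 ± 1.75 FPKM. All DP libraries were above all others. IGFBP3 rose by 2.07 on the log2 scale from LL to DP (SE 0.25, adjusted p = 0.000134) and fell by 2.81 from DP to LG (SE 0.25, adjusted p = 9.07e-05) in limma. Without DP replicate 3 the values were 1.99 and -2.72, and both calls held under every alternative run. In DP the gene stood at the 98.3 to 98.4 percentile of the 23499 genes, against the 80.5 to 91.3 percentile in LL and the 75.9 to 81.5 percentile in LG.

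The difference of IGFBP3 between LG and LL was small by comparison. The log2 fold change was -0.74 (SE 0.25, adjusted p = 0.0353 in limma), the scaled values overlapped, and without scaling it was 0.32. It was called without LL replicate 2 (-1.07), the LL library with the lowest value.

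IGFBP5 (gene ID 100860950, chromosome 2, 31117838 to 31140752, plus strand), a binding protein that also attaches to the extracellular matrix, was highest in LL. The LL libraries were at 33.89, 39.52 and 33.57 FPKM, the DP libraries at 17.75, 25.12 and 24.41, and the LG libraries at 12.19, 19.69 and 10.04. All LL libraries lay above all DP and LG libraries even before scaling. IGFBP5 fell by 2.03 on the log2 scale from LL to DP (SE 0.25, adjusted p = 0.000151) and by 2.48 from LL to LG (SE 0.25, adjusted p = 6.65e-05) in limma. Without scaling the first difference was -0.66 and under the fold threshold, where the median of all genes stood at 1.09. DP and LG overlapped, with a difference of -0.45 (SE 0.25, 95% interval -1.02 to 0.12, adjusted p = 0.195 in limma).

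IGFBP3 and IGFBP5 thus changed places between LL and DP. The ratio of IGFBP3 to IGFBP5 within a library was 0.231, 0.114 and 0.319 in the LL libraries, 4.92, 3.08 and 3.86 in the DP libraries and 0.612, 0.531 and 1.05 in the LG libraries. No stage overlapped another in this ratio, which was also chosen after the values were seen. The LL mean was 0.221 ± 0.103 (SD, n = 3), the DP mean 3.95 ± 0.921 and the LG mean 0.731 ± 0.278.

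IGFBP4 (gene ID 100860812, chromosome 19, 40320361 to 40330549, plus strand), known mainly as an inhibitor of IGF action, was also highest in DP. LL replicates 1 to 3 were at 3.67, 5.03 and 7.70 FPKM, DP replicates at 31.23, 35.04 and 97.39, and LG replicates at 14.18, 18.12 and 13.89. The DP libraries did not overlap LL or LG, and DP replicate 3 was far above the other DP libraries. IGFBP4 rose by 1.67 on the log2 scale from LL to DP (SE 0.39, adjusted p = 0.00542) and fell by 1.33 from DP to LG (SE 0.39, adjusted p = 0.0249) in limma. Without DP replicate 3 the first value was 1.15 and still called, while the second was -0.81 and no longer called. The second call was also lost without LG replicate 1 (-1.31) or LG replicate 3 (-1.24).

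Most fibroblast markers were higher in DP than in LL along with IGFBP3 and IGFBP4, but differed among themselves in LG. Of the 6 markers, 5 were called higher in DP than in LL, 2 (COL1A1 and COL3A1) were called higher in LG than in LL, and 2 (DCN and PDGFRA) were called lower in LG than in DP. DCN averaged 43.6, 420.3 and 81.1 FPKM in LL, DP and LG, and PDGFRA averaged 4.44, 39.5 and 5.23 FPKM. The collagens stayed high in LG, where COL3A1 averaged 461 FPKM against 568 in DP and 37.9 in LL. The DP mean rested on DP replicate 3, with 218.83, 336.03 and 1149.44 FPKM in DP replicates 1 to 3. After scaling, COL3A1 in DP replicates 1 and 2 (143 and 233) lay below every LG library (268 to 470). For LG against DP the log2 fold change was 0.26 for COL3A1, -0.25 for COL1A1 and -0.61 for COL1A2, none of them called. These marker values and calls include DP replicate 3 and are not given without it. Leukocyte markers were also higher in DP, where their summed scaled FPKM was 68.0 to 102 against 27.7 to 36.6 in LL and 23.5 to 32.8 in LG. Of these 5 markers, 3 were called higher in DP than in LL, 2 were called lower in LG than in LL and 4 were called lower in LG than in DP. The 6 luminal epithelial markers summed to 269 to 522 scaled FPKM in DP, against 819 to 1106 in LL and 733 to 891 in LG, with ELF5 the only one called in any comparison. Without ELF5, a sum added after the values were seen, the stages overlapped, at 243 to 478 in DP, 343 to 431 in LL and 324 to 393 in LG. Of 6 myoepithelial markers, 1, 2 and 1 were called higher in the 3 comparisons and none lower, of 5 endothelial markers 1 (TEK) was called lower in LG than in DP, and of the 2 adipocyte markers that passed the filter none was called in limma. Over all genes tested, 22.6%, 17.3% and 13.3% were called in DP against LL, LG against LL and LG against DP. With 2 to 6 markers tested per list, little can be read from the marker counts beside these shares. The part of these cell types in the IGF results was not tested.

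IGFBP2 (gene ID 102175172, chromosome 2, 31149536 to 31178739, minus strand), which binds both ligands, was low in LL. The LL libraries were at 1.57, 4.27 and 3.14 FPKM, the DP libraries at 6.53, 8.19 and 58.98, and the LG libraries at 15.10, 16.89 and 27.68. The LG libraries lay above all LL libraries, and DP replicate 3 lay above all other libraries. LG exceeded LL by 1.43 on the log2 scale (SE 0.67, 95% interval -0.06 to 2.92), with an adjusted p of 0.0996 in limma. The fit shares 1 estimate of the spread over all stages, DP replicate 3 included. Without that library the same difference of 1.43 was called, as was LG against DP (1.46), while DP against LL went from 0.91 to -0.03.

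IGFBP6 (gene ID 102180462, chromosome 5, 26609942 to 26613572, minus strand), which prefers IGF2 over IGF1, depended on the same library. LL replicates 1 to 3 were at 16.00, 19.59 and 17.77 FPKM, DP replicates at 28.68, 29.70 and 271.48, and LG replicates at 30.12, 42.30 and 32.81. Scaled values outside DP replicate 3 spanned 18.8 to 35.4. Within that span, DP replicates 1 and 2 (18.8 and 20.6) lay below all LL (29.3 to 35.4) and LG libraries (25.0 to 34.3). DP against LL gave a log2 fold change of 0.38 (SE 0.71, 95% interval -1.20 to 1.97, adjusted p = 0.660 in limma). Without DP replicate 3 it was -0.68 (adjusted p = 0.0131 in limma), under the fold threshold. No difference was called with or without that library.

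IGFBP7 (gene ID 102184134, chromosome 6, 72998456 to 73079471, minus strand), a related matrix protein with low affinity for IGFs, had the highest mean FPKM of the 10 genes in every stage. The LL libraries were at 38.55, 42.59 and 50.83 FPKM, the DP libraries at 162.07, 146.38 and 285.43, and the LG libraries at 75.53, 117.14 and 108.51. After scaling, DP still lay above both other stages without overlap, while LL and LG overlapped. The log2 fold change was 0.69 (SE 0.26, adjusted p = 0.0461) for DP against LL, -0.01 (adjusted p = 0.988) for LG against LL and -0.70 (SE 0.26, adjusted p = 0.0653) for LG against DP in limma. The first and the last were called with quantile normalization (1.52 and -1.17) and were 0.38 and -0.38 without DP replicate 3. The gene shares 90 bases with POLR2B on the opposite strand (7.65 to 35.3 FPKM), and the library kit does not mark strand.

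**Figure D3:**
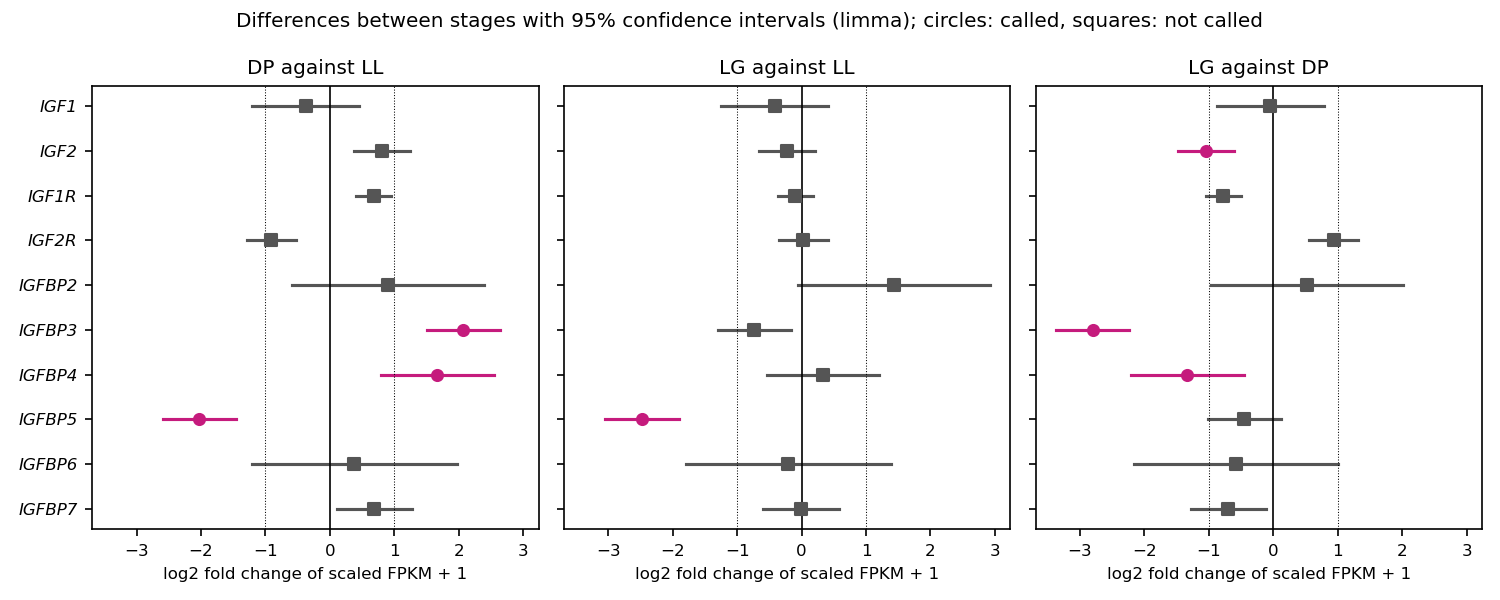
Log2 fold change of scaled FPKM + 1 with its 95% confidence interval from limma for the 10 IGF genes in each comparison, with circles for called genes, squares for the others and dotted lines at the fold threshold. The largest differences are IGFBP3 (2.07 in DP against LL, -2.81 in LG against DP) and IGFBP5 (-2.48 in LG against LL, -2.03 in DP against LL).

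The makeup of the binding proteins changed with stage. Of the summed FPKM of the 6 binding proteins, IGFBP5 held 33.4%, 34.2% and 27.1% in the LL libraries, 5.32%, 7.81% and 2.93% in the DP libraries and 7.89%, 8.77% and 4.93% in the LG libraries. The LL mean was 31.6% ± 3.87 (SD, n = 3), the DP mean 5.35% ± 2.44 and the LG mean 7.20% ± 2.01. LL stood clear of both other stages, which overlapped. Leaving IGFBP7 out of the sum gave 51.4%, 9.71% and 14.8%.

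IGFBP3 held 26.2%, 24.1% and 11.3% of the sum in the DP libraries, against 3.89% to 8.66% in LL and 4.66% to 5.18% in LG. IGFBP2 held 7.52% to 13.6% in LG, 1.55% to 3.70% in LL and 1.96% to 7.09% in DP. IGFBP7 held the largest share in every library, at 34.3% to 53.3%. The sum itself was 218, 223 and 578 scaled FPKM in the DP libraries, against 204 to 209 in LL and 129 to 182 in LG. DP replicates 1 and 2 were therefore close to LL in their total, and DP replicate 3, where IGFBP6 alone held 32.6%, was not.

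**Figure D4:**
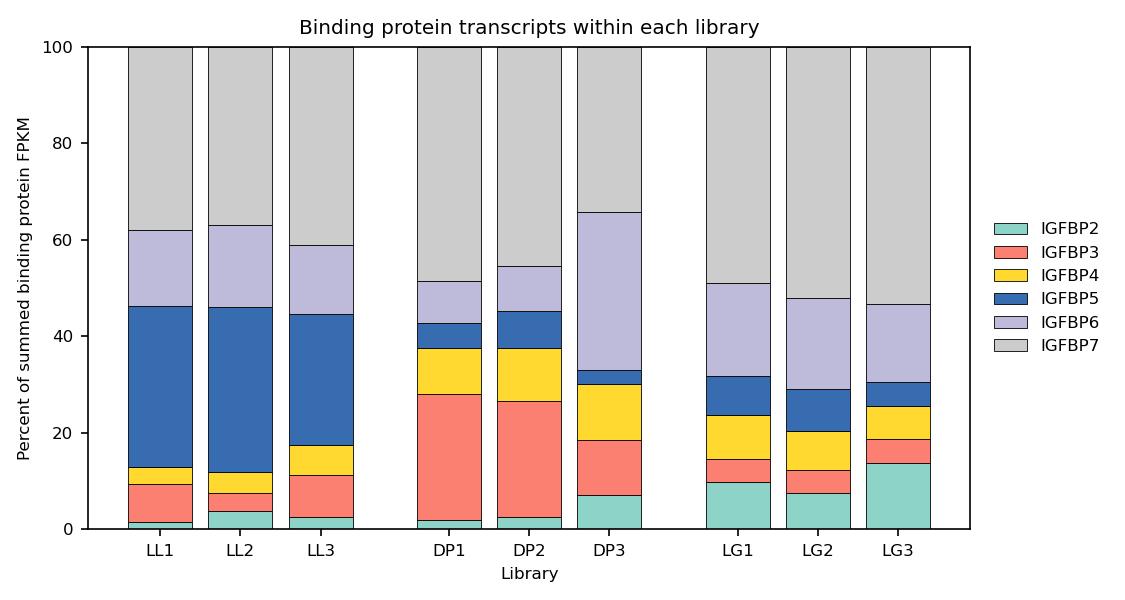
Share of each binding protein in the summed FPKM of IGFBP2 to IGFBP7 (percent, stacked) in each of the 9 libraries. IGFBP5 takes 27.1% to 34.2% in LL and at most 8.77% elsewhere, and IGFBP3 takes 11.3% to 26.2% in DP and at most 8.66% elsewhere.

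Within a stage, the order of the mean FPKM followed this makeup. In LL it ran IGFBP7, IGFBP5, IGFBP6, IGF2R, IGFBP3, IGF1, IGF2, IGFBP4, IGFBP2 and IGF1R. By their ranges over the 3 libraries, IGFBP5 stood clear of IGFBP6 and IGFBP6 of IGF2R, and all other neighbours overlapped. These ranges leave out the order within a library, where IGFBP7 exceeded IGFBP5 in each LL library. In DP it ran IGFBP7, IGFBP6, IGFBP3, IGFBP4, IGF2, IGFBP2, IGFBP5, IGF2R, IGF1 and IGF1R. The only step without overlap was from IGFBP5 to IGF2R, and it was narrow (lowest IGFBP5 17.75 FPKM, highest IGF2R 17.71 FPKM). Without DP replicate 3, an order added after the values were seen, it ran IGFBP7, IGFBP3, IGFBP4, IGFBP6, IGF2, IGFBP5, IGF2R, IGF1, IGF1R and IGFBP2. In LG it ran IGFBP7, IGFBP6, IGF2R, IGFBP2, IGFBP4, IGFBP5, IGF1, IGF2, IGFBP3 and IGF1R, with clear steps after IGFBP7, after IGFBP6 and before IGF1R. IGFBP5 thus went from rank 2 in LL to rank 7 in DP (6 without DP replicate 3) and 6 in LG, and IGFBP3 from rank 5 to 3 (2 without DP replicate 3) and then 9.

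Some of these genes are neighbours on the chromosome. IGFBP5 and IGFBP2 face each other on chromosome 2 with 8783 bases between them, and they differed in pattern, with IGFBP5 lower and IGFBP2 higher in FPKM in LG than in LL. IGFBP3 faces IGFBP1 on chromosome 4 across 8074 bases, and IGFBP1, a liver product, was at most 0.07 FPKM in any library. IGF2 contains the gene of the microRNA MIR483, listed at up to 0.06 FPKM.

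For each of the 4 genes called in any comparison, the most similar genes over the 9 libraries were taken by Pearson's r on the scaled log2 scale. These r describe stage differences that the genes share and carry no test. IGF2 was most like RAB4B (0.978), HOXB3 (0.969) and UBASH3B (0.969). HOXB3 passed the filter on low values only through the DP libraries, with 0.19 to 0.47 FPKM in LL and LG. Outside DP, UBASH3B reached 0.5 FPKM only in LG replicate 2 (0.60). Both were thus compared only because they were high in DP, where IGF2 was highest, and their r are a description. IGFBP3 was most like FHL1 (0.989), RAB31 (0.987) and OLFML1 (0.986). IGFBP4 was most like ECM2 (0.990), KANK2 (0.980) and COL6A1 (0.979), of which ECM2 and COL6A1 encode matrix proteins. IGFBP5 was most like ZNF407 (0.983), YJEFN3 (0.982) and LYPD6B (0.980).

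Of a list of 28 other genes of the pathway, 27 had a row under the symbol used and 18 passed the filter on low values. Of these 18, 7 were called in DP against LL (5 higher, 2 lower), 6 in LG against LL (3 higher, 3 lower) and 7 in LG against DP (1 higher, 6 lower). These are 38.9%, 33.3% and 38.9%, against 22.6%, 17.3% and 13.3% of all genes tested. The list was chosen with earlier results of these data known. The 7 calls in each comparison with DP include STC1, which passed the filter only through the DP libraries. The shares are therefore a description and no sign of an excess. Their median log2 fold change was 0.22, 0.01 and -0.21. Without scaling, 14 (all higher), 11 (9 higher, 2 lower) and 7 (1 higher, 6 lower) were called, and with quantile normalization 3 (all higher), 6 (3 higher, 3 lower) and 7 (1 higher, 6 lower). The share of all genes called was not taken under these settings either. IRS4, IGF2BP1 and IGFBPL1 were listed at 0 in every library.

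Proteases that cut binding proteins were among the genes that rose in DP. HTRA1, a secreted serine protease that cleaves IGFBP5, was at 6.41, 7.75 and 13.34 FPKM in the LL libraries, 47.57, 124.99 and 87.11 in the DP libraries and 17.61, 21.41 and 19.34 in the LG libraries. The DP libraries did not overlap the others. It rose by 1.73 on the log2 scale from LL to DP (SE 0.33, adjusted p = 0.00207) and fell by 1.75 to LG (SE 0.33, adjusted p = 0.00342) in limma. On the chromosome, HTRA1 overlaps LOC108634034, and how far this touches the values of HTRA1 was not tested. The related HTRA3 averaged 11.3 ± 3.29 FPKM (SD, n = 3) in DP, against 0.0733 ± 0.0208 in LL and 1.76 ± 0.398 in LG, and it was called in all 3 comparisons (2.91, 1.08 and -1.83), with the second call lost without LG replicate 2 (0.96) or when only LL and LG were fitted (0.96). ADAM12, a metalloprotease that cleaves IGFBP3 and IGFBP5, was at 0.15 to 0.50 FPKM in LL, with 1.65 to 6.26 in DP and 3.44 to 4.37 in LG. It was called higher in DP than in LL (1.03) and higher in LG than in LL (1.48), and the first call was lost without DP replicate 3 (0.62) or LL replicate 1 (0.96), with quantile normalization (0.51) and when only LL and DP were fitted (0.99).

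The stanniocalcins STC1 and STC2, which inhibit the pappalysin proteases that cut IGFBP4, followed the same stage. STC2 was at 3.88, 2.65 and 2.14 FPKM in the LL libraries, 13.73, 34.97 and 31.31 in the DP libraries and 0.02, 0.06 and 0.24 in the LG libraries. No stage overlapped another. Its log2 fold change was 1.55 (SE 0.34) for DP against LL, -2.51 for LG against LL and -4.05 for LG against DP, with adjusted p-values of 0.00419, 0.000358 and 7.05e-05 in limma. STC1 averaged 3.67 ± 1.56 FPKM in DP, against 0.210 ± 0.0458 in LL and 0.227 ± 0.107 in LG, and was called in both comparisons with DP (1.29 and -1.52), the first of which was 0.80 with quantile normalization and not called. STC1 passed the filter on low values only through the 3 DP libraries, with 0.11 to 0.32 FPKM in LL and LG, so it was tested only because it was high in DP and its calls are a description.

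Genes on the side of the receptor differed in direction. GHR, the growth hormone receptor through which IGF1 is induced, was at 9.38, 12.57 and 5.34 FPKM in the LL libraries, 12.72, 11.23 and 7.12 in the DP libraries and 2.26, 1.46 and 2.47 in the LG libraries. It was called lower in LG than in LL (-2.66) and than in DP (-1.58), with adjusted p-values of 0.000141 and 0.00398 in limma. Its call for DP against LL (-1.08) was lost without DP replicate 3 (-0.87), LL replicate 1 (-0.98) or LL replicate 2 (-0.85), and the value was 0.20 without scaling. IRS2, an adaptor of the insulin and IGF1 receptors, averaged 8.45 ± 0.679 FPKM in DP, against 1.78 ± 0.205 in LL and 1.21 ± 0.333 in LG. After scaling, the log2 fold change of DP against LL was 0.68 (SE 0.12, adjusted p = 0.00126 in limma), under the fold threshold. IRS2 fell by 1.78 on the log2 scale from DP to LG and was called lower in LG than in LL (-1.11), a call lost without LG replicate 1 (-0.999) or without scaling (-0.34).

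PIK3CA, the catalytic subunit of PI3K, was highest in LG. It was at 5.51, 9.75 and 8.47 FPKM in the LL libraries, 10.06, 7.21 and 9.25 in the DP libraries and 37.56, 48.33 and 36.49 in the LG libraries. All LG libraries were above all others. It rose by 2.26 on the log2 scale from DP to LG (SE 0.20, adjusted p = 7.51e-05 in limma) and was higher in LG than in LL (1.16), a call lost without LL replicate 1 (0.99). Its call for DP against LL (-1.11) was lost without LL replicate 2 (-0.98) or DP replicate 2 (-0.99), and the value was 0.16 without scaling. PIK3CA overlaps KCNMB3 on the opposite strand, and reads of the shared bases cannot be told apart.

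**Figure D5:**
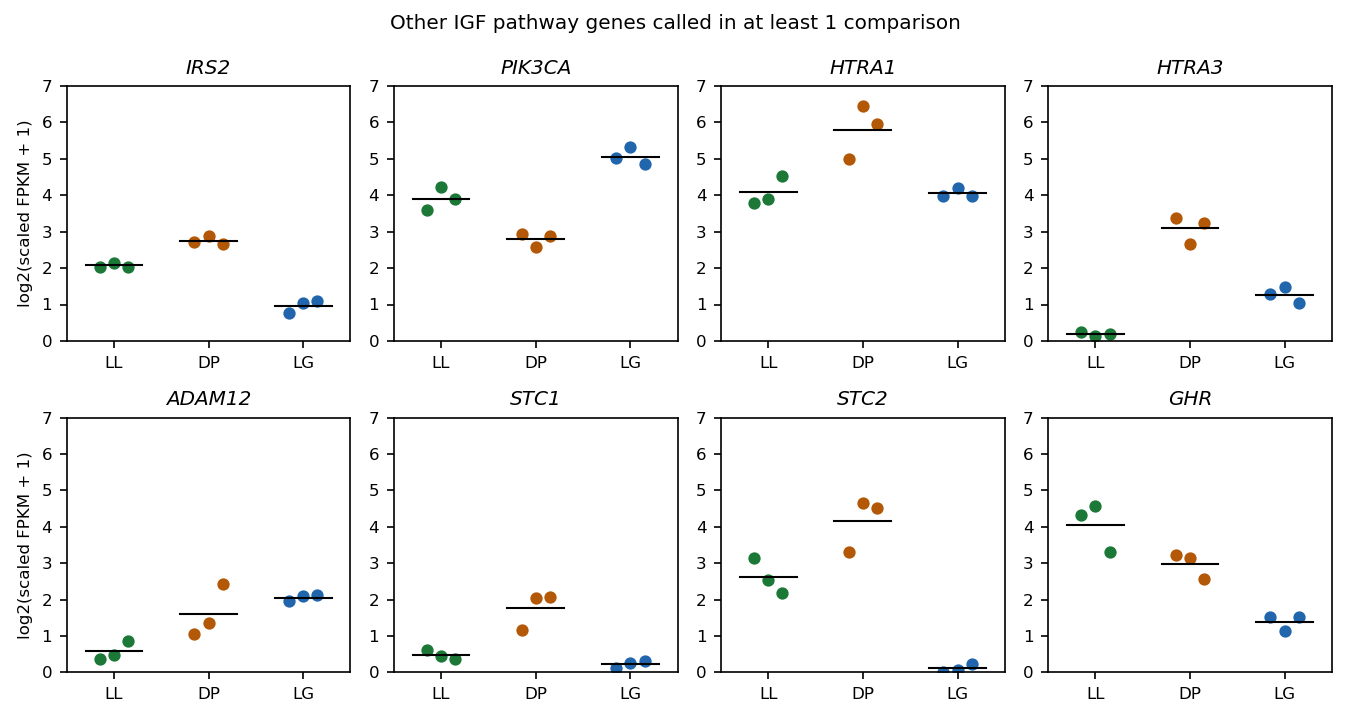
Log2(scaled FPKM + 1) of the 8 other pathway genes called in at least 1 comparison, with points for libraries and a line for the mean of a stage. HTRA1, HTRA3, STC1, STC2 and IRS2 are highest in DP, PIK3CA is highest in LG and GHR is highest in LL, and STC2 is near 0 in LG.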

How the data were processed

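Total RNA of 9 mammary glands was sequenced from TruSeq v2 libraries. Per the labels, reads were processed with FastQC, Trimmomatic, HISAT2, SAMtools and HTSeq, whereas the study's methods name StringTie for quantification. The deposited table names no unit and no genome build, and its values were taken as FPKM computed by the authors, since they are not whole numbers and their library sums differ (601250.2 to 1157015). FPKM keep no read counts, so the depth behind a value is unknown, no counting error was computed and no count test was run.

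Each library was scaled by a median-ratio factor from 15905 genes, and the log2 of the scaled value plus a pseudocount of 1 was analysed. Genes reaching 0.5 FPKM in 3 or more libraries (14701) entered limma 3.58.1 under R 4.3.3, using lmFit, contrasts.fit and eBayes with trend, all 9 libraries in one fit without covariates. P-values cover the spread between animals, and all adjusted p-values are from limma. Shares and ratios were computed in Python 3.11.15. Each IGF gene was compared with up to 8 neighbours on either side, and 0 of 110 pairs had values that followed each other to within 1% of their range.

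The genes named are the 10 members, the other pathway genes called in at least 1 comparison, the 3 genes most like each called member (Pearson's r, no LOC symbols, not within 8 genes) and cell type markers. Pathway genes at low values are named where the text refers to them. Members and lists were chosen with earlier results of these data known. Alternatives covered scaling, pseudocount, filter, libraries in the fit, trend, fold threshold, replicate block and each library left out. In simulated data for DP against LL with 14231 genes, 186 of 200 changed genes and 7 unchanged genes were called. The simulation gave every stage the LG mean of a gene, with independent noise and a change of fixed size above the fold threshold in DP. It therefore cannot tell how reliable calls near the threshold are, or calls that rest on a library standing apart.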

Additional observations from a re-analysis of the deposited data

How the results depend on the processing

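The number of IGF genes called depended on scaling and on the call rule. The share of all genes was taken only for the fit of the report and for its adjusted p alone. Counts under the other settings therefore show how calls moved and not how the IGF genes stood beside all genes. Without scaling, 7, 5 and 4 were called in DP against LL, LG against LL and LG against DP, the first 7 all higher in DP. With quantile normalization 5 were called in DP against LL, and with the adjusted p alone 7, 2 and 5 passed. Leaving out 1 library in turn gave 3 to 4, 1 to 2 and 1 to 3 calls. LG against LL gave 2 calls without LL replicate 2 or DP replicate 3, LG against DP gave 1 call without LG replicate 1, and a fit of only LL and LG gave 2. Among the other pathway genes, 14 and 11 were called in DP and LG against LL without scaling, 3 in DP against LL with quantile normalization, and 11 and 11 with the adjusted p alone. Leaving out 1 library gave 4 to 7, 5 to 6 and 6 to 7 pathway calls, the 4 without DP replicate 3. STC1 no longer passed the filter on low values, and was not tested, when a DP library was left out.

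Without scaling, where the median of all genes moved by 1.09 and 0.93 against LL, signs reversed for IGF1 (0.90 in DP and 0.64 in LG against LL), IGF2R, PIK3CA and GHR (0.41, 0.16 and 0.20 in DP against LL), and for IGF2, IGF1R, IGFBP3, IGFBP6 and IGFBP7 (0.81, 0.77, 0.32, 0.93 and 1.16 in LG against LL). In LG against LL, IGFBP6 was 0.0032 and IGFBP7 0.35 with quantile normalization, and IGFBP7 was 0.013 when only LL and LG were fitted. Over the libraries left out, ranges that crossed 0 were -0.38 to 0.29 (IGF1, LG against DP), -0.068 to 0.12 (IGF2R, LG against LL), -0.032 to 1.46 (IGFBP2, DP against LL), -0.030 to 1.46 (IGFBP2, LG against DP), -0.68 to 0.95 (IGFBP6, DP against LL), -1.15 to 0.48 (IGFBP6, LG against DP) and -0.14 to 0.16 (IGFBP7, LG against LL). None of these values was called in the fit of the report, apart from PIK3CA and GHR. Quantile normalization also took PIK3CA (-0.998) and GHR (-0.90) in DP against LL under the call threshold. The cause of each change was not tested.

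The IGFBP5 share ranged from 30.3% to 33.8% (LL), 4.13% to 6.56% (DP) and 6.41% to 8.33% (LG) over libraries left out, and was 51.4%, 9.71% and 14.8% without IGFBP7. The IGF1 share of ligands ranged from 51.5% to 59.3%, 29.98% to 37.5% and 49.4% to 54.7%.

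Correlations of deviations ran from -0.11 to 0.20 (median 0.06) in 9 same-numbered pairs of libraries. In the 18 differently numbered pairs they ran from -0.22 to 0.07 (median -0.003). Some same-numbered pairs thus lay above every differently numbered pair, but not every library correlated best with its own number. These correlations carry no test, so whether replicate numbers pair the libraries was not decided. With the replicate number as a block, 2 IGF genes were called in LG against LL (IGFBP5 and IGFBP2, 1.43), and no other count of calls moved by over 1.5 times. Pseudocount, filter on low values and trend moved no count of calls by over 1.5 times.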
